A study of Drosophila melanogaster with 2 samples.

Results

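The genes described here are the cytoplasmic ribosomal protein genes of Drosophila melanogaster, which encode the protein parts of the ribosome that works in the cytosol. They were chosen by name alone, as the protein-coding genes of the Ensembl release 115 annotation whose symbol starts with RpL (large, 60S subunit) or RpS (small, 40S subunit), and there were 92 of them among 13945 protein-coding genes on the 6 main chromosome arms. Of these, 50 were large-subunit genes, 37 were small-subunit genes and 5 had symbols ending in -like. Genes of the mitochondrial ribosome, whose symbols start with mRp, are a separate set. The symbol rule does not take sta, which encodes the small-subunit protein SA.

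The data are peak lists from ChIP-seq, which recovers and sequences the DNA that an antibody pulls down together with the protein it recognises. The protein was CG7745, carried with GFP at its C-terminus by 1 transgenic fly line (labelled CG7745), and the material was whole embryos aged 0 to 12 hours. The description in the labels names an antibody against GFP, while the antibody field names CG7745; which promoter drives the fusion is not stated there. The labels put both libraries, biological replicates 2 and 3, in 1 group (n = 2) with no second condition, so no test between conditions exists and the values below are descriptions. Each replicate's list and the list called on both pooled held 30000 peaks. The list thresholded by the irreproducible discovery rate (IDR), a measure of how alike peaks rank in replicates, held 1874 peaks. All 1874 were the strongest of the pooled list by signal, so the list sets how many pooled peaks are kept, and a single peak in it need not rank high in both replicates. Depth cannot be read from these files, which list peaks and no reads, and the exact (Clopper-Pearson) 95% intervals given here cover the counting of genes only. Both replicates were called against 1 control alignment, and its part in the peaks they share was not tested.

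Ribosomal protein genes are among the most strongly transcribed genes of growing cells, and their products are needed in near-equal amounts. In Drosophila, losing 1 copy of many of them gives the Minute phenotype of slow development and short bristles. Most animal ribosomal protein genes start transcription within a run of pyrimidines, the TCT initiator, in place of the common Inr initiator. In flies, DREF, which binds the DNA replication-related element (DRE), and M1BP, which binds the element called motif 1, are known to act at many housekeeping promoters. Several fly ribosomal proteins have a second gene, and some of these, such as RpL22-like, RpS5b and RpS19b, are known for expression in the germline.

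The promoter stretches below show where the IDR summits lay, for 10 of the genes with the strongest such peaks, and for RpS10a and RpL10Aa, 2 duplicate genes with no summit in any list. The 10 are a selection: RpL11, RpL41, RpS18, RpL39 and RpL31 ranked above RpL34a and are not shown. Each runs from 90 bases before the transcription start site (TSS) to 30 bases from it onward, read 5′ to 3′ on the gene's own strand from the RefSeq copy of Release 6 of the genome (dm6 coordinates). Capitals mark CTTT starting within 10 bases of the TSS, which is the core of the TCT initiator, and, on either strand, GGTCACAC (motif 1), TATCGATA (DRE) and CCGGAA. Where 2 of these overlap they form 1 run of capitals.
RpL7, chr2L:10200914-10201033, plus strand: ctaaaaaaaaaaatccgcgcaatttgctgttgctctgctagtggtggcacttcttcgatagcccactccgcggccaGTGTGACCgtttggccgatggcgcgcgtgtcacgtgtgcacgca
RpS4, chr3L:13041711-13041830, plus strand: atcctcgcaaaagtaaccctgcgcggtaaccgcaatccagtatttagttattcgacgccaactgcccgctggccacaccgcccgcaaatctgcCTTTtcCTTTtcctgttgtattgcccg
RpS27, chr3R:25247443-25247562, minus strand: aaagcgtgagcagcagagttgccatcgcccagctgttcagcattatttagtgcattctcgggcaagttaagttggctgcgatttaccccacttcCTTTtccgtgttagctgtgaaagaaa
RpL13, chr2L:9967240-9967359, plus strand: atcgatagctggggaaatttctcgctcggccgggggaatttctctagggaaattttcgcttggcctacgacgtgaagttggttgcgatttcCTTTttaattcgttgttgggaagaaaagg
RpL30, chr2L:19009208-19009327, minus strand: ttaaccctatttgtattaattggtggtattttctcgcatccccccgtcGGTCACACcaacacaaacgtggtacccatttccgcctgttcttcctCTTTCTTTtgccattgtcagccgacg
RpL23A, chr3L:1668625-1668744, minus strand: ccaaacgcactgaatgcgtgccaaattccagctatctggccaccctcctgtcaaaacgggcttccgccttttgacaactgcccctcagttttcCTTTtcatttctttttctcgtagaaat
RpS3A, chr4:67178-67297, minus strand: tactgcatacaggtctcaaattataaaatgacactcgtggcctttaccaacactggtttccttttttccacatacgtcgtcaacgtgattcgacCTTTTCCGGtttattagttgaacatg
RpLP0, chr3L:22076002-22076121, plus strand: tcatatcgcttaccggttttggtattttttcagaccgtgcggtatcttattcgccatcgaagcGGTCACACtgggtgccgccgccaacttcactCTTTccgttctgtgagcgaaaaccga
RpL34b, chr3R:9401197-9401316, minus strand: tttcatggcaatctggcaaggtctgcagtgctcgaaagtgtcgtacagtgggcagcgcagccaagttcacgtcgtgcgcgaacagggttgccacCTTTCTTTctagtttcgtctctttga
RpL34a, chr3R:26059238-26059357, minus strand: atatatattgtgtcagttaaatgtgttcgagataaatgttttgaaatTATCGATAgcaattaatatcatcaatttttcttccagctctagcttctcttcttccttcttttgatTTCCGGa
RpS10a, chr3R:27652670-27652789, plus strand: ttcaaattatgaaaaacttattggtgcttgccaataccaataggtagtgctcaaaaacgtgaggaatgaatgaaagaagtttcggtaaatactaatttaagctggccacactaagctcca
RpL10Aa, chr3R:15037276-15037395, plus strand: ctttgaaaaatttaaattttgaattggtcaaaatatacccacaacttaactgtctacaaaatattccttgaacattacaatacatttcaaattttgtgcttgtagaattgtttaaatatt

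In 8 of the 10 stretches from genes with an IDR peak, CTTT stood at the start site. RpL7 and RpL34a lacked it there. RpL7 has a second annotated TSS at 10201100, not shown, with CTTT starting within 3 bases, and is counted as having CTTT below. The RpL7, RpL30 and RpLP0 stretches held motif 1, and RpL34a held the DRE. CCGGAA stood in those of RpS3A and RpL34a. These tallies describe the stretches shown only. Among the higher-ranked genes not shown, RpL11, RpL41, RpS18, RpL39 and RpL31 all had CTTT within 10 bases of a TSS. Between 250 bases before and 50 after the TSS, RpL41 and RpL39 held the DRE, and RpL11, RpS18, RpL39 and RpL31 held CCGGAA. Neither RpS10a nor RpL10Aa held any of the 4 sequences. They do not stand for all 5 duplicates without a summit: RpL22-like and RpL37-2 had CTTT within 10 bases of a TSS, and RpL22-like had motif 1 between 250 bases before and 50 after its start. The IDR summits were 18 bp downstream of the TSS at RpL7, 5 bp upstream at RpS4 (-5 bp), 5 bp downstream at RpL13 and 6 bp upstream at RpS3A (-6 bp), and the farthest among the 10 was at RpL34b (-102 bp).

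CG7745 peaks, many of them outside the IDR list, lay at nearly every cytoplasmic ribosomal protein gene, and 37 of the 92 had one in that list. A gene was called bound when the IDR list had a summit no more than 500 bp from one of its TSS. That held for 37 ribosomal protein genes (40.2%, exact 95% interval 30.1 to 51%), beside 6.32% of all protein-coding genes. In the pooled list 83 had a summit in the same window (90.2%, interval 82.2 to 95.4%), beside 46.7% of all protein-coding genes. The replicate 2 list had one at 80 genes (87%), beside 44.5% of all, and the replicate 3 list at 81 (88%), beside 46.8% of all. Both replicate lists had a summit at 78 genes (84.8%, interval 75.8 to 91.4%), beside 35.8% of all protein-coding genes. RpL24-like and RpS28a had one in replicate 2 alone, and RpL10, RpL40 and RpS19b in replicate 3 alone. Mitochondrial ribosomal protein genes stood at 11% (8 of 73) in the IDR list and 71.2% (52 of 73) in the pooled list.

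**Figure D1:**
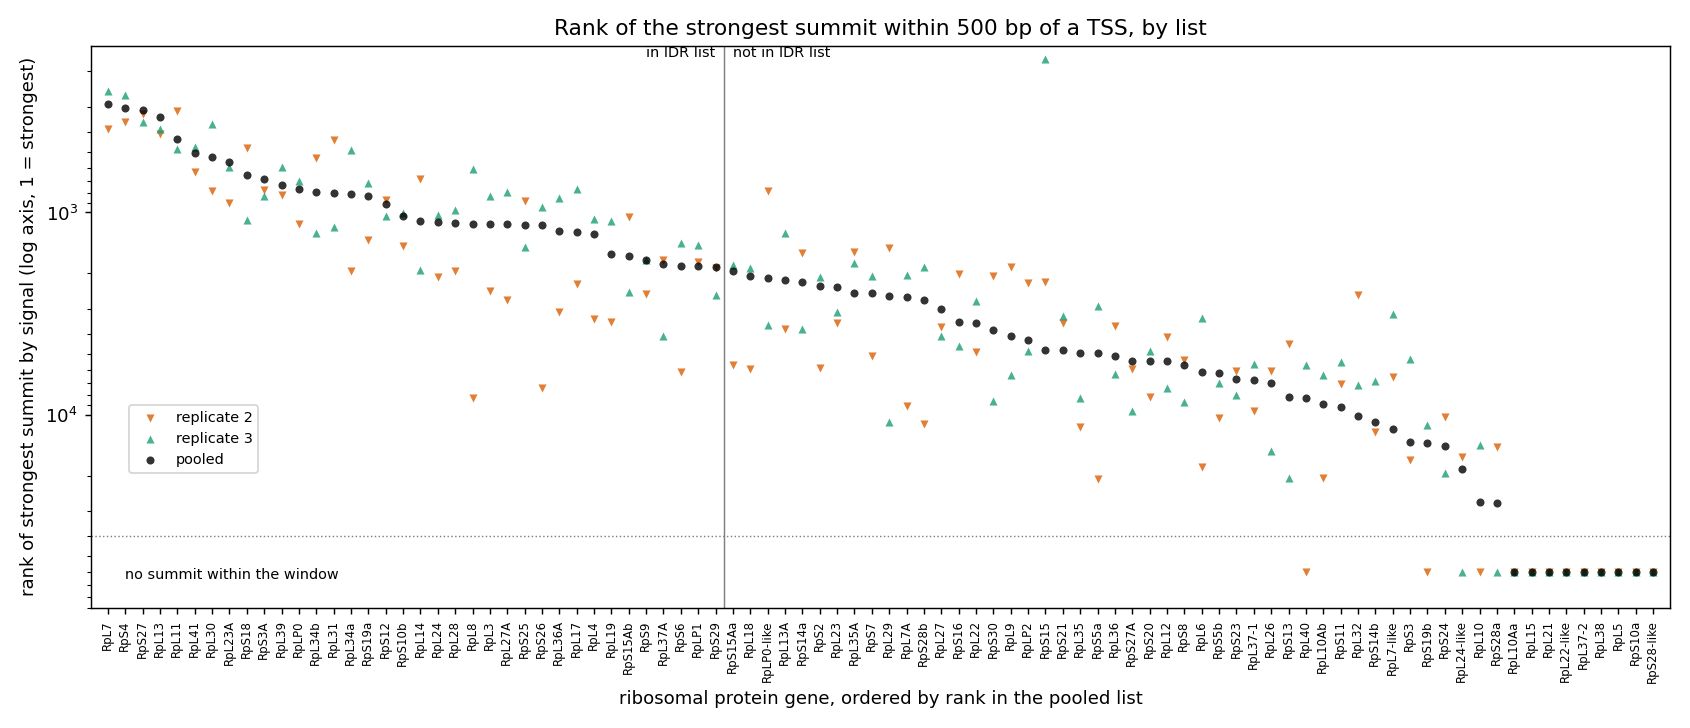
Rank by signal (log axis, 1 is the strongest peak of a list) of the strongest summit within 500 bp of a TSS of the ribosomal protein genes, 2 of them not plotted, in the pooled list (circles), replicate 2 (downward triangles) and replicate 3 (upward triangles). The genes left of the vertical line are in the IDR list, with pooled ranks from 290 to 1855, and the 9 genes at the far right have no summit in any list.

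The IDR peaks at these genes were not among the tallest of the genome. The signal of a peak is the authors' value with no stated scale and serves for ranking inside a list. Bound ribosomal protein genes had IDR signals from 122 to 276 with a median of 156, beside a median of 168 and a highest value of 4752 over all IDR peaks. Their ranks ran from 290 to 1855 of 1874 with a median of 1096, none was among the top 100, and 17 of the 37 were among its strongest 937 peaks (45.9%, exact 95% interval 29.5 to 63.1%). The 37 genes had 37 distinct peaks, so no peak counted for more than 1 of them.

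The 55 genes outside the IDR list were spread over the rest of the pooled list, and 9 of them had no summit there. The median pooled rank of the other 46 was 5030, and 14 of them ranked within the first 3000. By rank of the strongest summit in the pooled list, 23 genes (25%) fell at ranks 1875 to 5000, beside 9.04% of other protein-coding genes, and 14 (15.2%) at ranks 5001 to 10000, beside 10.7%. At ranks 10001 to 30000 the share was lower, with 9 ribosomal protein genes (9.78%) beside 20.6% of the others. Each gene counted once, at its strongest summit, so genes in the higher bands were no longer available for this one. RpS29, with an IDR signal of 122, was the last gene inside the list, and RpS15Aa, at rank 1942 with a pooled signal of 120, was the first outside it.

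Of the 12 bound genes with the highest signal, the first 4 were high in both replicates. RpL7, of the large subunit, had its peak at chromosome 2L, 10200918 to 10201105, with a signal of 276 in the IDR list, 100 in replicate 2 (rank 386) and 191 in replicate 3 (rank 252). RpS4, a small-subunit protein, had its peak at 3L, 13041662 to 13041870, with a signal of 272 in the IDR list, 103 in replicate 2 (rank 358) and 187 in replicate 3 (rank 261). RpS27, a zinc-finger protein of the small subunit, had its peak at 3R, 25247400 to 25247605, with a signal of 269.9 in the IDR list, 107 in replicate 2 (rank 326) and 163 in replicate 3 (rank 355). These 3 genes ranked within the top 400 of both replicate lists. RpL13 had its peak at 2L, 9967224 to 9967426, with a signal of 262, and its ranks were 408 in replicate 2 and 388 in replicate 3. Its summit was 5 bp downstream of the RpL13 start, and the head-to-head neighbour whose TSS lay within 500 bp of it was Dref, the gene of the DRE-binding factor itself.

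The next 8 had IDR signals between 239 and 184. RpL11, which with RpL5 and the 5S RNA forms a particle of the large subunit, had an IDR signal of 239, with rank 315 in replicate 2 and 487 in replicate 3. RpL41, the smallest protein of the ribosome, had 222, with ranks 631 and 476. RpL30 had 218, with ranks 782 and 365. All 3 were in the top 800 of both lists. RpL23A, which lies at the exit of the nascent chain tunnel, had 213, with ranks 896 in replicate 2 and 595 in replicate 3. RpS18, of the small-subunit head, had 198, with ranks 482 and 1084. RpS3A, the single member on chromosome 4, had 195, with ranks 774 and 833. The rank of RpS18 differed between the replicates by more than that of RpS3A, although their IDR signals were close. RpL39, a tunnel protein, had 188, with ranks 817 and 593, and RpLP0, the base of the stalk that recruits translation factors, had 184, with ranks 1145 and 698.

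The other bound genes had IDR signals between 180.2 and 122. Those of the large subunit included RpL34b, RpL31, RpL34a, RpL14, RpL24, RpL28, RpL8, RpL3, RpL27A, RpL36A, RpL17, RpL4, RpL19, RpL37A and RpLP1, in falling order of signal. They include RpL3, which lines the peptidyl transferase centre, and RpL4 and RpL17, which line the tunnel. Those of the small subunit were RpS19a, RpS12, RpS10b, RpS25, RpS26, RpS15Ab, RpS9, RpS6 and RpS29, among them RpS12, which in flies is needed for cells with a Minute mutation to be outcompeted by their neighbours. The known Minute genes RpS3 and RpL14 stood at pooled ranks 13652 and 1096.

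Large-subunit genes were bound in 24 of 50 cases (48%, exact 95% interval 33.7 to 62.6%) and small-subunit genes in 13 of 37 (35.1%, interval 20.2 to 52.5%), beside 6.32% of all protein-coding genes. In the pooled list the order was the opposite, with 44 of 50 (88%) and 36 of 37 (97.3%), beside 46.7% of all protein-coding genes. The 50 include RpL5, RpL15, RpL21 and RpL38, which lie beyond the first or last summit of their arm and have none by definition. No small-subunit gene lies there, so the pooled order rests largely on these genes. The intervals of the 2 subunits overlap in each list. With the strongest 1874 peaks of replicate 2 alone, 32% of large-subunit genes were bound, a setting without a computed share of all protein-coding genes. Of the stalk genes, RpLP1 was the lowest in the IDR list (rank 1846, signal 122), and RpLP2 was outside it (pooled rank 4293, signal 83, summit at -1 bp). RpL40 and RpS27A, which encode ubiquitin joined to a ribosomal protein, were also outside it, at pooled ranks 8311 and 5415, and RpL40 had no replicate 2 summit within 500 bp.

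The IDR summits at ribosomal protein genes lay close to the start site. The median position of the strongest IDR summit was 4 bp downstream of the nearest TSS (quartiles -21 and 27 bp, range -129 to 89 bp, n = 37), with 18 upstream and 19 downstream. At the other 844 bound protein-coding genes the median was -112 bp, with quartiles of -205 and 0 bp. A summit within 50 bp of the TSS was found at 27 of the 37 genes (73%, exact 95% interval 55.9 to 86.2%), beside 145 of 844 others (17.2%, interval 14.7 to 19.9%). The 844 include genes whose summit lay nearer to the TSS of another gene. Their own TSS was the nearest in 665 of the 844, beside 36 of the 37. Positions at those 665 alone were not computed, so the contrast is partly one of which gene a summit counts for. The scoring window was 500 bp, and no bound gene had its strongest summit farther than RpS25 (-129 bp). The count was again 37 with a window of 250 bp and 40 with 1000 bp.

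**Figure D2:**
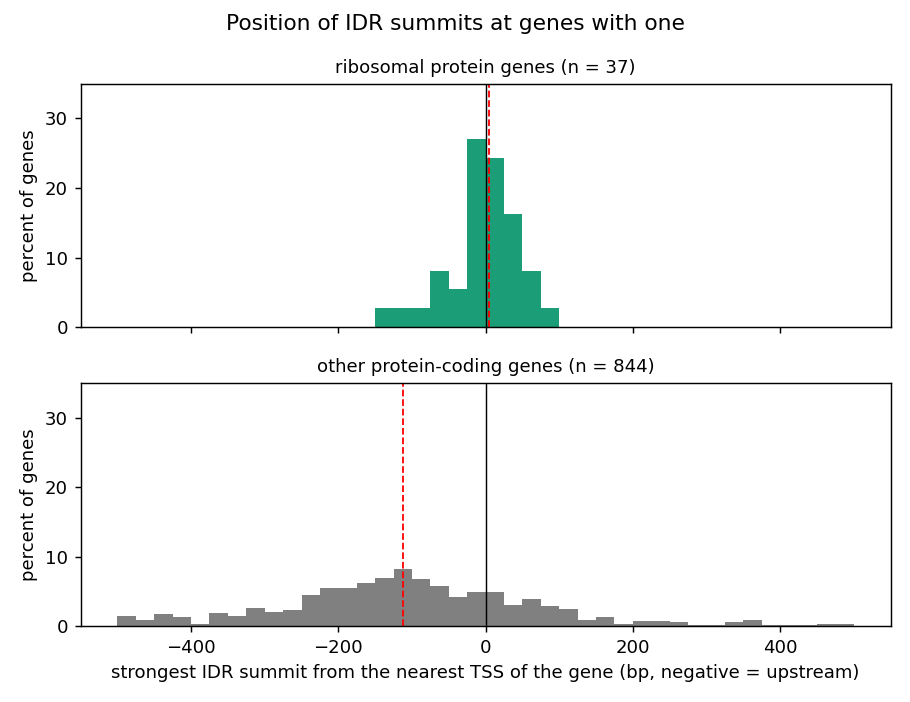
Position of the strongest IDR summit relative to the nearest TSS of the gene, in 25 bp bins as percent of genes, for ribosomal protein genes (upper panel, n = 37) and other bound protein-coding genes (lower panel, n = 844). The lower panel includes genes whose summit is nearer to the TSS of another gene. The red dashed lines are the medians, 4 bp and -112 bp, and all ribosomal protein gene summits fall between -129 and 89 bp.

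The same held in the single lists and for the weaker peaks. The median position was 4 bp in the pooled list (n = 83), 3 bp in replicate 2 (n = 80) and -8 bp in replicate 3 (n = 81), beside -59, -52 and -60 bp at other genes. Of the 46 genes with a pooled but no IDR summit, 35 had it within 100 bp of a TSS. For instance, RpS2, RpL13A and RpL35A had pooled summits at -6, 4 and 8 bp, with pooled ranks of 2297, 2148 and 2513. The other 11 lay farther away: RpS19b (474 bp), RpL26 (261 bp), RpS24 (197 bp), RpS15 (138 bp) and RpL10 (124 bp) downstream, and RpL32 (-441 bp), RpL7-like (-374 bp), RpS28a (-258 bp), RpL24-like (-217 bp), RpS20 (-191 bp) and RpS5b (-132 bp) upstream. At RpL32, RpL7-like, RpS20 and RpS19b a weaker pooled summit lay nearer, at 2, 77, 112 and 205 bp from a TSS.

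Nearly all of their IDR peaks were closer to the ribosomal protein gene than to its neighbours. Of the 37 bound genes, 18 had the TSS of another protein-coding gene within 500 bp of the summit, yet the ribosomal protein gene's own TSS was the nearest in 36 (97.3%, exact 95% interval 85.8 to 99.9%). The exception was RpS25, whose neighbour CG4820 was nearer. At other bound genes the own TSS was the nearest in 665 of 844 (78.8%, interval 75.9 to 81.5%), where 1 summit can count for several genes. A head-to-head neighbour, with a TSS on the opposite strand within 1000 bp upstream, stood beside 55 of the 92 genes. Of these, 24 were bound (43.6%, interval 30.3 to 57.7%), as were 13 of 37 without one (35.1%, interval 20.2 to 52.5%), and these intervals overlap. Among other protein-coding genes 9.07% with such a neighbour and 4.42% without were bound. In the pooled list 54 of the 55 had a summit (98.2%, interval 90.3 to 100%), beside 66.1% of other protein-coding genes with such a neighbour. Of the 37 without one, 29 had a summit (78.4%, interval 61.8 to 90.2%), beside 35.2% of other protein-coding genes without one. These intervals do not overlap, but they count genes beyond the first or last summit of their arm, which have none by definition. Those are RpL15, RpL21 and RpL38 without a neighbour and RpL5 with one. Intervals without them were not computed for this split. With the strongest 1874 peaks of replicate 2 alone the shares of ribosomal protein genes were 38.2% and 18.9%, and with those of replicate 3 alone 50.9% and 29.7%. The shares of other protein-coding genes were not computed with a single replicate. Neighbours that share a peak include Ripalpha with RpL7, Nup37 with RpS27, NaCP60E with RpL41, Nelf-E with RpL14 and eIF1 with RpL28.

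The replicate lists did not rank all the bound genes alike. Of the 37 IDR summits, 37 had a replicate 3 summit within 100 bp and 35 a replicate 2 summit. RpL34a and RpS26 had none in replicate 2 within that distance, and their strongest replicate 2 summits lay at -212 and -172 bp from the TSS. Matched signals ran from 28.7 to 109 in replicate 2 (median 66.6) and from 55.7 to 191 in replicate 3 (median 106), on scales that may differ. Across the 35 genes matched in both, the signals gave a Spearman's rho of 0.409 and, as log2 values, a Pearson's r of 0.406. The 35 were kept for a high pooled signal, which narrows their range. Across the 78 genes with a summit in both replicate lists, the signals of the strongest summits within 500 bp gave a Spearman's rho of 0.561. These describe genes of 2 libraries that share a control, and the genes are not independent replicates.

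The rank was better in replicate 3 for 23 of the 35 genes and better in replicate 2 for 12. Within the strongest 1874 peaks of each replicate, 31 of the 35 were found in replicate 3 and 22 in replicate 2. The widest gap was at RpL8, with rank 610 in replicate 3 (signal 129) and rank 8286 in replicate 2 (signal 28.7). RpS6, known as the target of S6 kinase, had rank 1417 in replicate 3 and 6167 in replicate 2. The opposite order held at RpL37A, with rank 1715 in replicate 2 and 4102 in replicate 3, and at RpL31, with 438 and 1184. Both replicate lists nonetheless placed a summit within 500 bp of all 37.

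**Figure D3:**
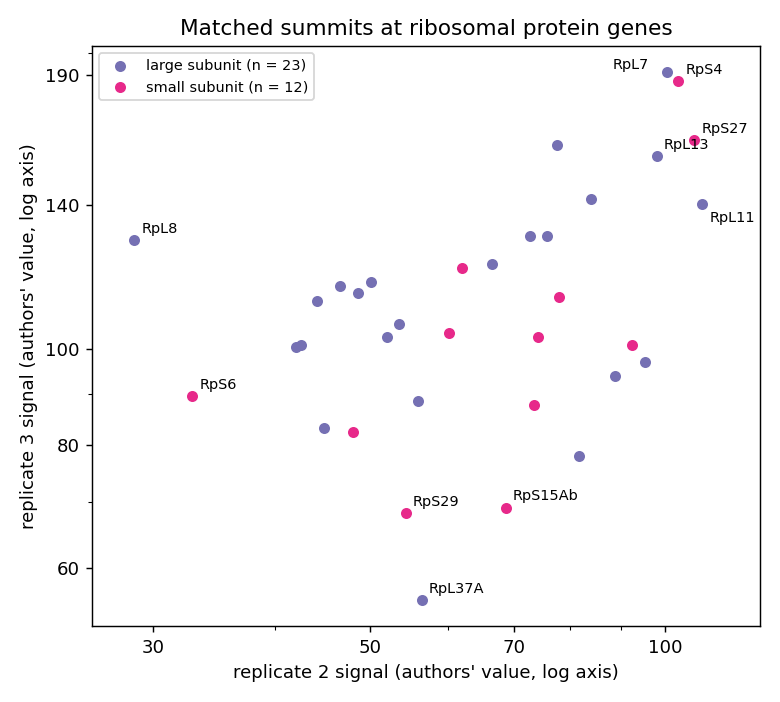
Signal in replicate 2 (x axis) and replicate 3 (y axis), both the authors' values on log axes, of the summits matched within 100 bp of the IDR summit, for 23 large-subunit and 12 small-subunit genes. RpL7, RpS4, RpS27 and RpL13 are high in both, while RpL8 and RpS6 are low in replicate 2 for their replicate 3 signal.

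The genes with no peak were of 2 kinds, duplicates and genes near centromeres. In all, 9 genes had no summit within 500 bp in any list. RpL5, RpL15, RpL21 and RpL38 lay beyond the first or last summit that any list holds on their arm. RpL21 and RpL5 started 78637 and 363805 bp past the last summit on 2L (position 22168474), RpL15 started 4164820 bp past the last on 3L (23102435), and RpL38 ended 78869 bp before the first on 2R (4595327). The processing of reads from such regions is not described in the sources used here, so whether reads could be placed there cannot be told apart from whether CG7745 was there. Genes beyond the limits have no summit by definition. Among the 88 ribosomal protein genes inside them, 83 had a pooled summit (94.3%, exact 95% interval 87.2 to 98.1%), beside 47% of all protein-coding genes inside them.

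The other 5 genes without a summit were all duplicates of another ribosomal protein gene. They were RpL10Aa, RpL22-like, RpL37-2, RpS10a and RpS28-like. The nearest pooled summits were 48624 bp away at RpL10Aa, 16607 bp at RpS10a, 8084 bp at RpL37-2 and 7479 bp at RpL22-like. At RpS28-like it was 517 bp away, just outside the window. Each of their partners had a pooled summit: RpS10b was in the IDR list (rank 1041, 4 bp), and RpL10Ab, RpL22, RpL37-1 and RpS28b had pooled ranks of 8904, 3526, 6766 and 2702, at -61, -74, 45 and 36 bp.

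Other pairs differed less evenly. RpS19a was bound (IDR rank 826, 12 bp), while RpS19b had its strongest pooled summit 474 bp downstream at rank 13808 and no replicate 2 summit within 500 bp. RpL24 was bound (rank 1120, -18 bp), while RpL24-like, whose yeast counterpart acts in ribosome assembly, had a pooled rank of 18550 at -217 bp, nearer to CG5276. RpL7-like had a pooled rank of 11779 at -374 bp, beside rank 290 for RpL7, and a weaker pooled summit 77 bp from a TSS. Its strongest summits were at -77 bp in replicate 2 (rank 6524) and -401 bp in replicate 3 (rank 3191). In these 3 pairs the gene of the common protein had the stronger peak, close to its TSS.

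RpS28a had a pooled rank of 27242 at -258 bp, nearer to Axn, and RpS14a and RpS14b, which lie side by side, had pooled ranks of 2201 and 10896. RpLP0-like, whose yeast counterpart Mrt4 acts in ribosome assembly, had a pooled rank of 2117 at -88 bp, nearer to 14-3-3zeta. RpS5a and RpS5b were close in the pooled list (ranks 4941 and 6239, at -19 and -132 bp), but the replicate 2 rank of RpS5a was 20702. Some pairs had both genes at similar ranks. RpL34a and RpL34b were both bound, at IDR ranks 810 and 794, and RpS15Ab was bound (rank 1642) with RpS15Aa just outside (pooled rank 1942). Reads that match both copies of a pair may be placed on either, and their handling is not described in the sources used here.

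Most ribosomal protein gene promoters held the letters of their known initiator near the TSS, whether in the IDR list or not. Unbound genes here are the 55 outside that list, and 46 of them had a pooled summit, 35 within 100 bp of a TSS. The motif shares of bound and unbound genes therefore do not compare genes with and without a peak. CTTT starting within 3 bases of an annotated TSS, on the gene's strand, was found at 31 of the 92 genes (33.7%, exact 95% interval 24.2 to 44.3%), beside 4.74% of all protein-coding genes. Within 10 bases, a distance added after the data were seen, it was found at 76 (82.6%, interval 73.3 to 89.7%), beside 14.9% of all. By this wider count, 33 of 37 bound genes (89.2%) and 43 of 55 others (78.2%) had it, and their exact intervals overlap. Of the 5 duplicates without a summit, RpL10Aa, RpS10a and RpS28-like lacked it, and RpL22-like and RpL37-2 had it. TCAGT, the Inr letters, starting within 5 bases of a TSS, was found at 0 of 92 genes (exact upper limit 3.93%), beside 15% of all protein-coding genes.

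The other motifs were searched on both strands from 250 bases before to 50 after the TSS nearest to the IDR summit, or the gene's outermost TSS where there was none. TATCGATA was found at 13 of 37 bound genes (35.1%, exact 95% interval 20.2 to 52.5%) and 15 of 55 unbound ones (27.3%), beside 9.3% of all protein-coding genes. CGATAG, which overlaps it by 5 letters where a G follows, was found at 45.9% and 41.8%, beside 19.5% of all, and 10 of the 13 genes with TATCGATA also held it. GGTCACAC was found at 8 bound genes (21.6%) and 7 unbound ones (12.7%), beside 7.63% of all. For each of the 3 the intervals of bound and unbound ribosomal protein genes overlap.

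Where TATCGATA was present in a bound gene, its centre lay upstream of the TSS in all 13 cases, at a median of -51 bp, and 5 of the 13 were within 50 bp of the summit (median distance 74 bp). GGTCACAC lay upstream in 7 of 8, at a median of -18.5 bp, and within 50 bp of the summit in 5. The window reached 250 bases upstream and 50 downstream, so its layout alone favours upstream matches. At RpLP0 the summit was 2 bp from the centre of GGTCACAC. TATAAA was found at 40.5% of bound and 50.9% of unbound ribosomal protein genes, beside 45.6% of all. GAGAG was found at 18.9% and 14.5%, beside 30.1% of all and 43.4% of the other bound genes. CACGTG was found at 10.8% and 7.27%, beside 4.2% of all, and CAGCTG at 10.8% and 9.09%, beside 17.8% of all. Matches are letters in a window and not proof of a site.

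**Figure D4:**
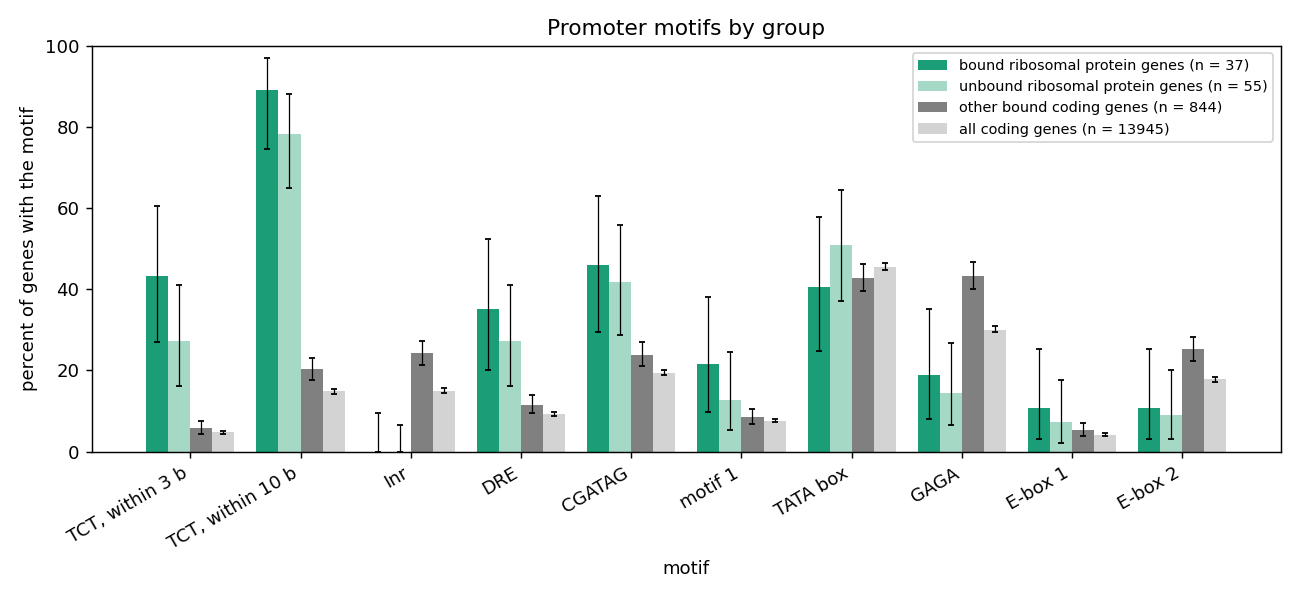
Percent of genes whose promoter holds each motif, with exact 95% intervals as error bars, for bound and unbound ribosomal protein genes, other bound protein-coding genes and all protein-coding genes. Unbound genes are the 55 outside the IDR list, of which 46 had a pooled summit. E-box 1 is CACGTG and E-box 2 is CAGCTG, b stands for bases, and CTTT within 10 bases of the TSS stands at 89.2% of bound and 78.2% of unbound ribosomal protein genes, beside 14.9% of all genes.

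Bound members were spread over all 6 arms. The counts were 9 of 19 on 2L, beside 6.4% of all protein-coding genes of that arm, 8 of 21 on 2R, beside 6.91%, and 8 of 14 on 3L, beside 7.19%. They were 7 of 23 on 3R, beside 6.72%, 1 of 1 on chromosome 4, beside 8.75%, and 4 of 14 on X. On X, 28.6% were bound (exact 95% interval 8.39 to 58.1%), beside 3.64% of all protein-coding genes there. All 14 had a pooled summit, beside 46.6% of all protein-coding genes on X.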

How the data were processed

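Peaks at the 92 ribosomal protein genes were scored in 4 lists as the authors deposited them. Per the deposited list of files, each replicate and both pooled were searched for peaks on genome build dm6, always against 1 control alignment, and the IDR list was derived from these. The sources used here name no aligner, peak caller or version. The deposited signal of a peak is the caller's value with no stated scale and was used only for ranks and for description within a list. The deposited −log10 q reached 3.56 in the pooled list, shared by 1810 peaks, and ranked nothing. The deposited offset gave the summit.

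TSS came from the Ensembl release 115 annotation (FlyBase 6.54) on 6 arms. A gene was scored by its strongest summit within 500 bp of any TSS. No test was run, because 1 group with 2 libraries allows none. Shares have exact 95% intervals over genes. The members, lists, motifs and distances were chosen with earlier results of these data known. Any member could be named, with full values for the 12 strongest bound genes, paralogue pairs, stalk and ubiquitin-fusion genes, and all genes without a summit. Single-gene values of 2 members are not reported here. Alternatives were windows of 250 and 1000 bp, the outermost TSS, the stronger 0.5 of each list, each replicate alone, and other matching distances. The scoring was tested on simulated summits with the outermost TSS alone, and not with every annotated TSS as in the main counts. The scripts used Python 3.11.15 with pandas 2.3.3, NumPy 2.4.6, matplotlib 3.10.9 and SciPy 1.17.1.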

Additional observations from a re-analysis of the deposited data

How the results depend on the processing

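Of 117 recomputed values, 101 stayed within 1.5 times the count, inside the exact interval of the share or within 1 SD of the 2 replicates' medians, and 16 did not. Shares of all protein-coding genes were not recomputed with the other windows, list parts, TSS choice or single replicates. Whether the excess over them holds in those settings was not tested. With the strongest 937 IDR peaks alone, 17 ribosomal protein genes were bound, with 22% of large-subunit and 16.2% of small-subunit genes, 21.8% of genes with a head-to-head neighbour and 13.5% of those without. There the median rank was 650 and the median position -6 bp. These counts fall because fewer peaks are scored. With each replicate alone, 28 to 39 genes were bound, the median rank was 841 to 941, and the median position -8 to -5 bp. Large-subunit genes were bound in 32 to 50% of cases, and genes without a head-to-head neighbour in 18.9 to 29.7%; the cause was not tested. The median position was -0.5 bp with a window of 1000 bp and 18 bp with the outermost TSS alone, so its sign is not settled while it stays near the TSS. CTTT within 10 bases in place of 3 raised the share of bound genes from 43.2 to 89.2%, a wider search by construction. Leaving out the 4 genes beyond the summits of their arm was added after seeing the data and left 37 bound and 83 with a pooled summit. Those genes have no summit in any list, so neither count could change, and both are among the 101 by construction. No paired analysis was possible because the labels give 1 group. Read depth is unknown and limits every statement on absence.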

Other observations

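The 6 letters CCGGAA, on either strand of the same promoter windows, were found at 16 of 37 bound ribosomal protein genes (43.2%, exact 95% interval 27.1 to 60.5%) and at 16 of 55 unbound ones (29.1%, interval 17.6 to 42.9%). They were found at 6.76% of all protein-coding genes and at 4.74% of the other bound genes. The letters were chosen after their values were seen, so these counts are a description with no test. In the bound genes the centre nearest to the summit lay downstream of the TSS in all but 3 of the 16, at a median of 21 bp, and 13 of the 16 were within 50 bp of the summit. The closest were at RpS19a (1 bp from the summit), RpL31 (4 bp) and RpS18 (6 bp).

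Many ribosomal protein genes host small nucleolar RNAs in their introns, which guide the modification of ribosomal RNA. Of the 28 ribosomal protein genes with an annotated snoRNA gene inside them on the same strand, 16 were bound (57.1%, exact 95% interval 37.2 to 75.5%). Without one, 21 of 64 were bound (32.8%, interval 21.6 to 45.7%), and of all protein-coding genes 6.32%. The intervals overlap. In the pooled list the shares were 92.9% and 89.1%, beside 46.7% of all protein-coding genes.

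At RpS15 the strongest replicate 3 summit within 500 bp had rank 175, above every other member in that list, but it lay at -495 bp, upstream of the TSS. The nearest replicate 3 summit was 86 bp from the TSS, and within the window the pooled list placed its strongest summit at 138 bp with rank 4768. An IDR summit, and so also a pooled one, lay 520 bp from the TSS, just outside the window.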
